A study of Mus musculus and Homo sapiens with 27 samples.

Results

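Entpd1 and Alpl encode enzymes that stand on the outer face of the cell membrane and cut phosphate groups from molecules outside the cell. They were followed here on spotted cDNA arrays of lymphocyte genes (lymphochips) in mouse B cells with 0 or 1 working copy of Irf4, the gene of a transcription factor needed for plasma cell formation, and ENTPD1 was followed in a human lymphoma line given IRF4. The members were taken by symbol: 1 mouse feature named Entpd1, 2 named Alpl and 5 human features named ENTPD1, which are 8 of 27538 features on both platforms. The mouse features belong to 331 named genes and the human ones to 4604. Both mouse genes had been picked out on these same arrays for lower values in KO cells after LPS, Entpd1 at 96 h and Alpl over the 3 LPS times. Those differences are therefore given as a description, without a test.

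The mouse cells were splenic B cells of adult Balb-c mice, taken before culture with lipopolysaccharide (LPS, a component of bacterial walls that makes B cells proliferate and become antibody secreting) or after 24, 48 or 96 h with it, at 20 to 25 mg/ml as the labels write the dose. Irf4-/- cells (KO) had 3 arrays at each time. Irf4+/- cells (Het) had 3 arrays before LPS, 2 each for 24 and 48 h and 4 for 96 h. The Het cells lack 1 Irf4 allele themselves, and no Irf4+/+ group was analysed here. Each mouse array set Cy5-labelled B-cell RNA against a Cy3-labelled pool of B-cell, T-cell and macrophage lines, plasmacytomas among them, so a level of 0 here means the array's median feature and not absence. The human arrays set OCI-Ly7, a line of a germinal-centre-like diffuse large B-cell lymphoma, with IRF4 in the vector Vxy (Cy5) against the same line with the empty vector (Cy3), which the design text calls not transduced. Day 2 and day 5 after transduction had 1 array each, and day 3 had 2.

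The direction of the deposited ratios was taken as Cy5 over Cy3, which is likely but not stated, and if it ran the other way each sign below would turn. The B-cell receptor subunit gene Cd79b exceeded the pool by at least 1.91 log2 units on each of the 23 mouse arrays. It was the only one of the fixed B-cell markers among the named mouse genes. Irf4 itself was not among those genes, so its loss could not be read. Jchain, whose product joins antibody units in secreted polymers, was read in its place: its highest KO array at any time lay at -2.59, and its lowest Het array at -2.02. In 3 KO arrays, replicate 3 at 24 h and replicates 1 and 3 at 48 h, the title says KO and the sample fields say Het. The titles were followed. Array spread was uneven, with an SD over all features of 0.98 to 3.10, and it reached its highest values among arrays with low numbers in the authors' database. By that number there are 3 separate blocks of mouse arrays (lowest, middle and highest range, with 5, 5 and 13 arrays), and every 96 h array lies in the highest one.

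Entpd1 makes CD39, which turns extracellular ATP and ADP into AMP. CD73 then makes adenosine from AMP, and adenosine restrains immune cells through its receptors, while ATP itself excites them through P2X and P2Y receptors. CD39 is found on B cells, regulatory T cells and macrophages. Alpl makes the tissue-nonspecific alkaline phosphatase, held in the membrane by a glycosylphosphatidylinositol (GPI) anchor. It frees phosphate from pyrophosphate, from pyridoxal phosphate and from nucleotides, and it is best known from bone.

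Mouse Entpd1 lies on chromosome 19 from 40612366 to 40741602, and Alpl on chromosome 4 from 137741731 to 137796384 (RefSeq, GRCm38.p6). RefSeq windows of 300 bases (250 before a transcription start and 50 after it) are shown because both genes are compared between cells with and without IRF4, a factor that binds the core site GAAA next to partner sites. Each gene has 2 such windows, and the arrays do not tell which start was used. Each sequence runs 5′ to 3′ on the gene's strand, and capitals mark GAAA on either strand (written TTTC on the other one).
Entpd1, first start, chr19:40612116-40612415, plus strand: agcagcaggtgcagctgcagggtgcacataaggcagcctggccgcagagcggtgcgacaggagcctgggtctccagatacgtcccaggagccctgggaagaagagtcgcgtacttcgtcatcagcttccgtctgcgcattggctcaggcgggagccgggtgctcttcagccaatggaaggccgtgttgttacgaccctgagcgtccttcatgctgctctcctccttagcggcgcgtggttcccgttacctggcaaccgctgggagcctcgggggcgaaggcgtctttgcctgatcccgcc
Entpd1, second start, chr19:40659520-40659819, plus strand: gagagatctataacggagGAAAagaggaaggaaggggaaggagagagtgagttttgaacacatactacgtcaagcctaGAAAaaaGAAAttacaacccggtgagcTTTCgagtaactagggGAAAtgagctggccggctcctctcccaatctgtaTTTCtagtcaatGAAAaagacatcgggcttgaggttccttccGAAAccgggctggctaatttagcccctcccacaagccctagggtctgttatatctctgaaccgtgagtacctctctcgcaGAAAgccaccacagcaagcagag
Alpl, first start, chr4:137796335-137796634, minus strand: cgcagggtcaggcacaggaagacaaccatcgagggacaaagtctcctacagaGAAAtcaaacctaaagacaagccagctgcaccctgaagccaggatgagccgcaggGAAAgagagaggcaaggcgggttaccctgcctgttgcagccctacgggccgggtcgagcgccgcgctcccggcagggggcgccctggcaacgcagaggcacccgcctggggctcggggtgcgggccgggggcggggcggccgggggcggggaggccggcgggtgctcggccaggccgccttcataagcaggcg
Alpl, second start, chr4:137766426-137766725, minus strand: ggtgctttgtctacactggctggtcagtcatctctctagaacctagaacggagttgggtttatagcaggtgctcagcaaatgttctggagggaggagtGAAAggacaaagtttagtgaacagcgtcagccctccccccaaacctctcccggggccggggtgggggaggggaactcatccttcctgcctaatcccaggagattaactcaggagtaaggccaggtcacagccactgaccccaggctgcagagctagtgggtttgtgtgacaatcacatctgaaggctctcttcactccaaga
The core site was found 0 times in the first Entpd1 window, 9 times in the second, 2 times in the first Alpl window and 1 time in the second. It is common, being present in 89.2% of 32851 mouse windows. Of 4 longer motifs that hold it, each was found in 0 of the 4 windows on either strand. They were GAAA, any 2 bases and GAAA (in 3.44% of all windows), GGAA, any 2 bases and GAAA (a site shared by ETS factors and IRF4, in 2.72%), and the sites shared by AP-1 factors and IRF4. The last were TGA, any base, TCA, any 4 bases and GAAA (in 0.119%), and GAAA joined directly to TGA, any base and TCA (in 0.125%). These counts say only that the letters are or are not in the windows shown.

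Entpd1 was highest in Het cells at 96 h. Its 3 KO arrays at 96 h lay at 0.21, 0.28 and 0.35, against 1.69, 1.85, 1.85 and 1.59 on the 4 Het arrays, as log2 levels over the pool. The groups did not overlap, and arrays within each group lay close together. KO cells averaged 0.28 ± 0.07 (SD, n = 3) and Het cells 1.75 ± 0.13 (SD, n = 4). Entpd1 was thus 2.77-fold lower in KO, with KO minus Het at -1.47 ± 0.32 on the log2 scale (SE from the limma fit over all mouse arrays). In this contrast, which chose the gene, 2.72% of the 331 named genes passed the adjusted threshold of 0.05 and 12.7% lay lower in KO without overlap. All 7 of these arrays belong to 1 range of database numbers, and none has conflicting labels.

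Before LPS the genotypes were not told apart by Entpd1. The KO arrays lay at -0.34, 1.11 and 0.29, against 0.38, 0.56 and 0.85 on the Het arrays. The KO values span the Het ones. The difference was -0.24 ± 0.34 (SE, limma adjusted p = 0.753), where 1.81% of genes passed. It was 0.10 without KO replicate 1, the lowest array, and 0.045 with array weights, but -0.62 without KO replicate 2, the highest array. Within the lowest database range KO minus Het was -0.80 and within the highest -0.56, each with 1 KO array.

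At 24 h the KO arrays lay at -0.75, 0.20 and -0.26, against -0.31 and -0.57 on the Het arrays. Again the KO values lie on both sides. The difference was 0.17 ± 0.38 (SE, limma adjusted p = 0.846), and it was -0.070 without KO replicate 2. Within the lowest database range KO minus Het was -0.45 and within the middle one 0.77, each from 1 array per genotype, so the sign differed between them.

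At 48 h the KO arrays lay at -0.72, -0.07 and -0.12, against 0.32 and -0.01 on the Het arrays. Each KO array was below both Het arrays, which was so for 22.1% of the genes. The difference was -0.46 ± 0.38 (SE, limma adjusted p = 0.997). With the conflicting arrays taken as Het it was 0.063. At 24 and at 48 h limma passed 0 of 331 genes (0%), with 31 and 9 genes at an unadjusted p under 0.05. The missed threshold at the 3 earlier times does not show that Entpd1 was alike in the genotypes.

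**Figure D1:**
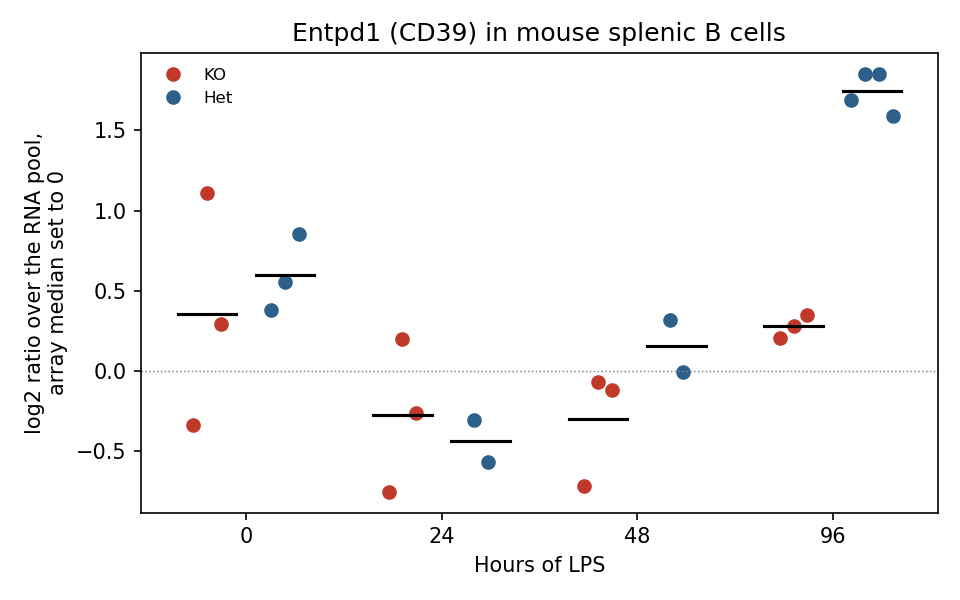
Entpd1 level (log2 ratio over the RNA pool, array median set to 0) by hours of LPS, 1 point per array, KO left and Het right at each time, with bars at the group means. At 96 h the 4 Het arrays lie between 1.59 and 1.85 and the 3 KO arrays between 0.21 and 0.35, and at 0 h and 24 h the genotypes overlap.

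Over time, Entpd1 was lower at 24 h than at 0 h in both genotypes, though neither difference passed. It was -0.63 ± 0.34 (SE, limma adjusted p = 0.489) in KO and -1.03 ± 0.38 (SE, limma adjusted p = 0.0739) in Het, in comparisons where 1.51% and 13.3% of genes passed. That Het difference passed under 3 alternatives: centring over the named features, leaving out the lowest database range, and range as a factor (adjusted p = 0.048, 0.0403 and 0.0373), in a range of 0.0373 to 0.622 over all its alternatives. At 48 h the change from 0 h was -0.66 ± 0.34 (SE, limma adjusted p = 0.690) in KO and -0.44 ± 0.38 (SE, limma adjusted p = 0.517) in Het, where 1.51% and 8.46% passed. The KO change at 48 h was -1.001 both without KO 0 h replicate 1 (adjusted p = 0.210) and without the whole lowest database range (adjusted p = 0.0497), and -0.28 without KO 0 h replicate 2 (adjusted p = 0.997). With the conflicting arrays left out it was -0.42. The KO change at 24 h ran from -0.97 without KO 0 h replicate 1 to -0.25 without KO 0 h replicate 2, and the Het change at 48 h from -0.60 to -0.28 with 1 array left out.

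At 96 h the change from 0 h was -0.08 ± 0.34 (SE) in KO and 1.15 ± 0.32 (SE) in Het, given without a test since the 96 h arrays chose the gene. The median over all genes in the same comparisons was -0.60 in KO and -0.42 in Het. With arrays centred over the named features instead, these medians moved up by 0.61 and 0.62, and the Entpd1 changes became 0.54 in KO and 1.77 in Het, so the sign in KO depends on the centring while Het stayed above 0. Without KO 0 h replicate 2 the KO change was 0.30. Without the lowest database range, which leaves 1 Het array at 0 h, the Het change was 0.89.

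Ordered by group mean, Het at 96 h came first, and its lowest array (1.59) lay above the highest of the other 19 mouse arrays (1.11). The 96 h arrays chose the gene, and how many other genes have a group so placed was not counted. Het 0 h (0.60), KO 0 h (0.35), KO 96 h (0.28), Het 48 h (0.16), KO 24 h (-0.27), KO 48 h (-0.30) and Het 24 h (-0.44) followed. Each of these overlaps the next in its arrays. With this centring the Entpd1 level in KO cells at 96 h was within the range of KO cells before LPS (-0.34 to 1.11). It lay below every Het array before LPS (0.38 to 0.85).

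Alpl followed another course. Its 2 features, 102270_1 and 102396_1, tracked each other over the 23 arrays with a Spearman rho of 0.97 and a median gap of 0.09 log2 units. The largest gap was 1.14, on KO 24 h replicate 1, the array with the lowest Alpl value outside KO 96 h. The gene value is their mean.

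At 96 h Alpl lay at -2.77, -2.73 and -2.65 on the KO arrays, against -1.23, -0.71, -0.70 and -0.34 on the Het arrays. The KO arrays lay close together and below every Het array. At this time 12.7% of the named genes lay lower in KO without overlap, and these arrays helped choose the gene. KO cells averaged -2.71 ± 0.06 (SD, n = 3) and Het cells -0.75 ± 0.37 (SD, n = 4), a 3.91-fold lower level in KO and a difference of -1.97 ± 0.55 (SE).

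At 48 h the KO arrays lay at -1.09, -1.33 and -0.98, against 0.31 and 0.29 on the Het arrays. Lower values in KO without overlap were found for 22.1% of the named genes at this time. The groups were more than 1 log2 unit apart, KO averaging -1.13 ± 0.18 (SD, n = 3) against 0.30 ± 0.01 (SD, n = 2) for Het, with a difference of -1.43 ± 0.66 (SE). The SE of the fit is larger than this spread because it is drawn from all groups. The gap was -1.39 within the middle database range and -1.44 within the highest. Both KO arrays with conflicting labels at this time, replicates 1 and 3, lay beside the KO array with agreeing labels and below both Het arrays. Counted as Het they gave a difference of -0.97, and left out, -1.63.

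At 24 h the genotypes overlapped. Alpl lay at -2.34, 0.67 and -0.20 on the KO arrays, against 1.56 and 0.41 on the Het arrays, and the difference was -1.61 ± 0.66 (SE). Much of it came from 1 pair of arrays: KO minus Het was -3.90 in the lowest database range (replicate 1 of each) and 0.26 in the middle range (replicate 2 of each). Without the lowest range the difference was -0.18, and with 1 array left out it lay between -2.25 (without KO replicate 2) and -0.75 (without KO replicate 1).

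Averaged over the 3 LPS times, the contrast that chose the gene, KO minus Het was -1.67 ± 0.36 (SE), 3.18-fold lower, where 2.42% of genes passed and the median gene lay at -0.18. It stayed below 0 in 31 of 31 alternatives and lay between -2.51 and -1.19. These alternatives reuse the arrays that chose the gene, so the kept sign is no separate support. The feature 102270_1 alone gave -1.75 and 102396_1 alone -1.58.

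Before LPS Alpl lay at -0.67, -1.88 and -1.55 on the KO arrays, against -0.35, -0.21 and -1.73 on the Het arrays. Het replicate 3 lay among the KO values. The difference was -0.60 ± 0.59 (SE, limma adjusted p = 0.616), and 0.0145 without the lowest database range. Whether the genotypes differed in Alpl before LPS was therefore not shown.

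**Figure D2:**
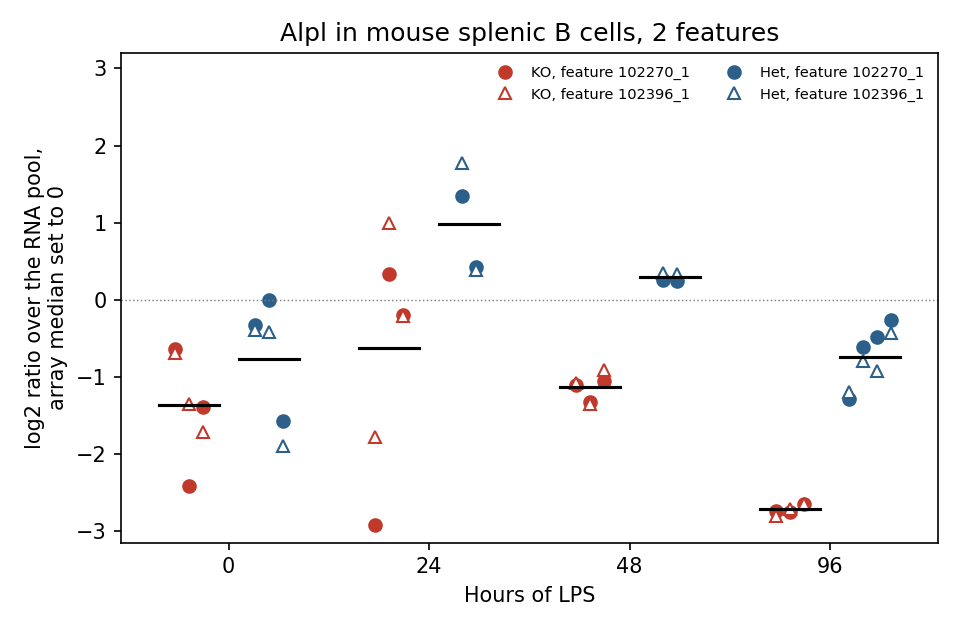
Alpl level (log2 ratio over the RNA pool, array median set to 0) by hours of LPS, with both features of each array (filled circles 102270_1, open triangles 102396_1), KO left and Het right at each time, and bars at the group means. KO at 96 h is the lowest group at -2.71 and Het at 24 h the highest at 0.98, with a rank correlation of 0.97 between the features.

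In Het cells Alpl was higher by 1.75 ± 0.66 (SE) at 24 h than at 0 h, by 1.06 ± 0.66 at 48 h and by 0.02 ± 0.55 at 96 h. In KO cells the changes were 0.74 ± 0.59, 0.23 ± 0.59 and -1.35 ± 0.59 (SE) in the same order. Single arrays moved several of these. The KO change at 24 h was 1.60 without KO 24 h replicate 1 and 0.095 without KO 24 h replicate 2, and the KO change at 48 h was 0.58 without KO 0 h replicate 1 and -0.025 without KO 0 h replicate 2. The Het change at 48 h was 0.58 and that at 96 h -0.46 without Het 0 h replicate 3. These changes rest on arrays that chose the gene and carry no test. The median gene changed by -0.60 between 0 and 96 h in KO. With arrays centred over the named features Alpl in KO still lay 0.73 log2 units below its level at 0 h, and in Het it lay 0.64 above it.

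Ordered by group mean, Alpl was highest in Het 24 h (0.98), Het 48 h (0.30) and KO 24 h (-0.63). Het 96 h (-0.75), Het 0 h (-0.77), KO 48 h (-1.13), KO 0 h (-1.37) and KO 96 h (-2.71) followed. Het 24 h did not overlap Het 48 h, and KO 96 h did not overlap KO 0 h, while every other neighbour overlapped. In the mean of both features the highest KO 96 h array (-2.65) lay below the lowest of the other 20 arrays (-2.34). In feature 102270_1 alone this was not so. There KO 24 h replicate 1 lay at -2.91 and the KO 96 h arrays between -2.75 and -2.65. How many other genes have a group so placed was not counted.

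**Figure D3:**
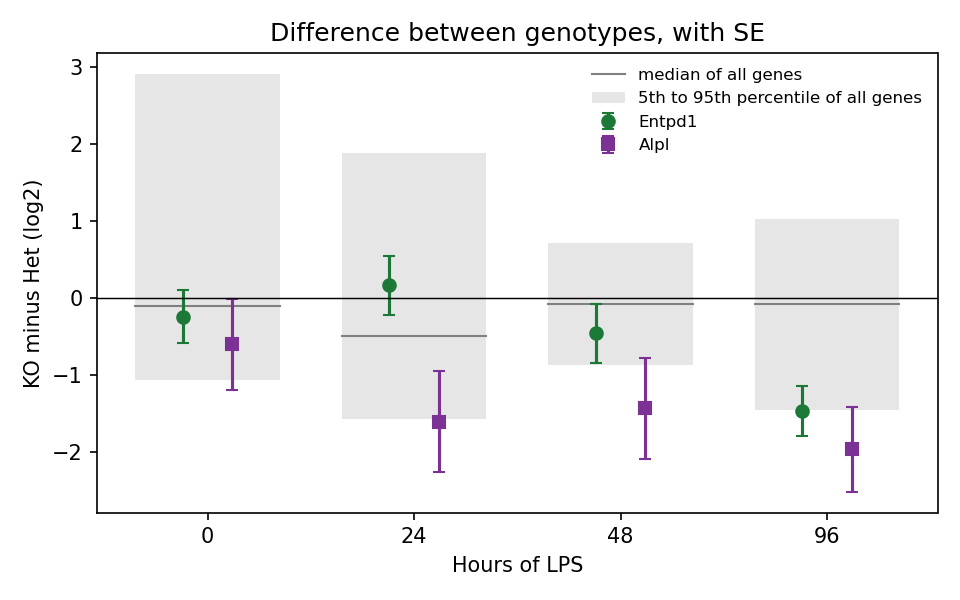
KO minus Het (log2) by hours of LPS for Entpd1 (circles) and Alpl (squares) with the SE of the limma fit, over grey bars from the 5th to the 95th percentile of 331 genes and lines at their median. Entpd1 lies at -1.47 at 96 h and between -0.46 and 0.17 before, and Alpl lies between -1.97 and -1.43 at the LPS times.

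The members did not move together over the arrays, with a Spearman rho of -0.16 between their levels (n = 23). The 5 named genes most like Entpd1 over these arrays were Trp53inp1, a p53-induced gene, with a rho of 0.72, St6gal1, a sialyltransferase, with 0.58, Adck1 with 0.57, Jchain with 0.53 and Trim27 with 0.53. Most like Alpl were Eif1a, a translation initiation factor, with a rho of 0.86, Slc7a5 with 0.85, the death agonist Bid with 0.85, Pa2g4 with 0.84 and Slc3a2 with 0.83. The products of Slc7a5 and Slc3a2 pair into a carrier of large neutral amino acids. All values share their arrays and the pool, and array spread differs, so they are a description. Over the 13 arrays of the highest database range, a setting chosen after seeing the data, Trp53inp1 stayed first for Entpd1 (rho 0.91), and Slc3a2 came first for Alpl (0.94) while Eif1a fell to place 23 (0.71).

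Other genes of these pathways were few on the mouse array. Of the list for extracellular nucleotides and adenosine only Ada, adenosine deaminase, was named besides Entpd1, of the alkaline phosphatase list only Pigv, which adds a mannose to the GPI anchor, besides Alpl, and of the other ectoenzymes only Adam17, a sheddase of surface proteins. Pigv and Adam17 lie outside the naming rule and were named after their values were seen. By limma 0 of these 3 genes passed in the KO and Het comparisons at single times, and 1 of the 3, Pigv at 24 h, had an unadjusted p under 0.05. At 96 h Ada lay at -0.71 ± 0.68, Adam17 at -0.20 ± 0.60 and Pigv at 0.11 ± 1.06 (KO minus Het, SE, each adjusted p = 0.993). That Pigv difference was 4.38 ± 1.26 (SE, limma adjusted p = 0.420) and came from 1 array, Het 24 h replicate 1 at -7.81, while the KO arrays lay at 1.30, 0.003 and 0.081 and the other Het array at -0.02. Without that array it was 0.48 (adjusted p = 0.999). Nt5e, the gene of CD73, was not among the named mouse genes.

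Markers of plasmablasts and of other cells are given beside the members for 96 h. The mean level of 6 plasmablast markers was -0.94 to -0.81 on the KO arrays and 0.95 to 1.12 on the Het arrays. KO minus Het was below 0 for 5 of the 6 and above 0 for 1. The latter was Sdc1 at 1.26 ± 1.27 (SE), named after its values were seen. Of the 6, 1 passed the threshold in the comparison, Jchain, which was lower in KO. Jchain lay at -7.41 and the others below 0 between -1.74 and -0.91, so the gap in the mean level rests largely on Jchain. Between 0 and 96 h the change was above 0 for 3 of the 6 plasmablast markers in KO and for 5 of 6 in Het. In these comparisons 0.906% and 25.7% of all genes passed. Of the markers limma passed 0 of 6 in KO and 3 of 6 in Het, all higher at 96 h. They were Ell2, an elongation factor, at 2.53 ± 0.76 (SE, limma adjusted p = 0.0218), Mzb1, a chaperone of antibody assembly, at 5.47 ± 1.60 (SE, limma adjusted p = 0.0201), and Xbp1, a factor of the secretory programme, at 1.40 ± 0.47 (SE, limma adjusted p = 0.0345). At 0 h KO minus Het was 1.31 for Ell2, 4.85 for Mzb1 and 0.62 for Xbp1, so these Het means started lower. KO minus Het in the change from 0 to 96 h was -3.05, -6.16 and -1.99 in the same order. It did not pass (limma adjusted p = 0.219, 0.226 and 0.178), so a genotype difference in these changes was not shown. The Het calls also rest on few arrays at 0 h. Without Het 0 h replicate 2 the Mzb1 change was 3.38 (adjusted p = 0.154) and the Xbp1 change 0.75 (adjusted p = 0.241), and without Het 0 h replicate 3 the Ell2 change was 1.07 (adjusted p = 0.0630). Mzb1 also missed the threshold without Het 0 h replicate 1 (adjusted p = 0.0582), and Xbp1 without Het 96 h replicate 1, 3 or 4 (adjusted p = 0.0574 to 0.0698). The mean level of 3 T and NK cell markers was -0.95 to 0.10 in KO and -1.94 to -0.30 in Het, and these ranges overlap. KO minus Het was above 0 for 3 of 3, with 0 past the threshold. The 1 myeloid marker, Ncf1, lay at 1.66 to 2.09 in KO and 1.30 to 1.85 in Het, which also overlap, and did not pass. Their part in the Entpd1 and Alpl values was not tested. In such bulk samples fewer cells that express a gene and less of its RNA per cell cannot be told apart.

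In OCI-Ly7 the human ENTPD1 features gave unlike answers. The mean of the 5 features was 0.34 at day 2, 0.30 and 0.51 at day 3 and 0.73 at day 5, as log2 of IRF4 vector over empty vector. All 4 arrays lay above 0, as did 17% of the 4604 human genes. Over the 4 arrays the mean was 0.47 ± 0.25 (SE), 1.39-fold, with a limma adjusted p of 0.288, in a comparison where 0.109% of genes passed and the median gene lay at -0.14. Days with 1 array give no spread of their own, so no change with time can be read.

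Of the features, 27565_1 was the highest on the 4 arrays together, at 1.40 at day 2, 1.71 and 1.00 at day 3 and 1.27 at day 5. Feature 32303_1 lay at 0.06, 0.50, 0.64 and 1.05 in the same order of arrays, also above 0 each time. Feature 27553_1 varied most, at 0.75, -0.58, 0.22 and 1.43. Feature 15987_1 lay between 0.29 and 0.35 on the arrays of days 2 and 3 and at -0.52 at day 5. Feature 28536_1 lay at -0.80, -0.40, 0.32 and 0.43, with a mean of -0.11. The symbols come from the platform's annotation of 2007, and whether every feature measures the same transcript was not tested. With 1 feature in place of the mean, the value lay between -0.11 and 1.35, and 0 of 5 passed, with adjusted p from 0.123 to 0.834.

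**Figure D4:**
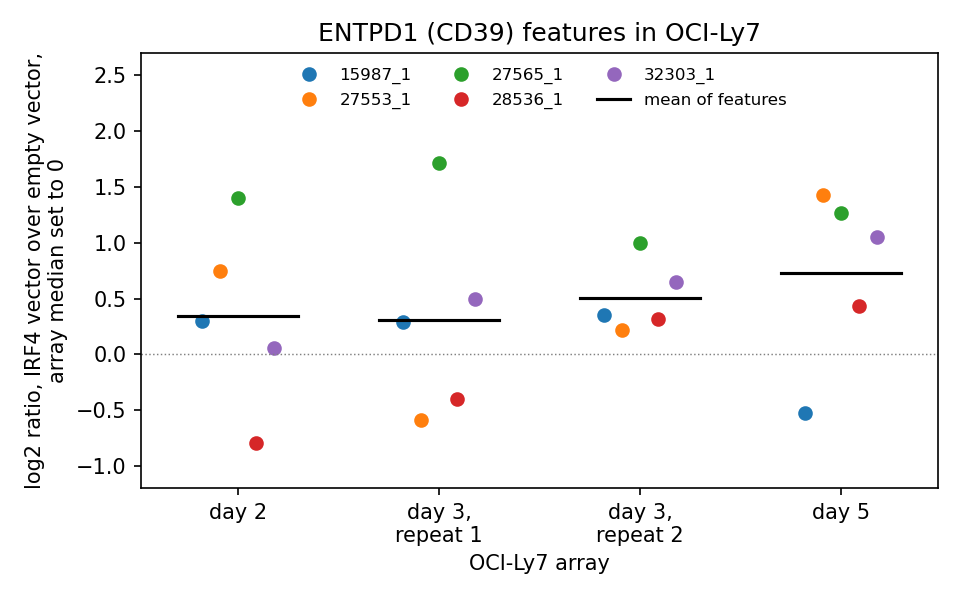
ENTPD1 log2 ratios (IRF4 vector over empty vector, array median set to 0) on the 4 OCI-Ly7 arrays, 1 colour per feature, with bars at the mean of the 5 features. The means lie between 0.30 and 0.73, and single features spread from -0.80 to 1.71.

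The check of the vector was itself divided. Of 4 features named IRF4, 24729_1 lay between 0.60 and 0.86 on the 4 arrays, while the other 3 were above 0 on 1 of 4 arrays each, which was day 3 replicate 1. The plasmablast marker list holds IRF4 itself, which lay at -0.03 ± 0.30 (SE) as the mean of these features, so the list is not a separate check. Of its 8 markers measured, IRF4 included, 5 lay above 0, and 1 passed. It was TNFRSF17, the gene of the plasma cell receptor BCMA, at 3.36 ± 0.31 (SE, limma adjusted p = 0.0455). With any 1 of the 4 arrays left out it lay between 3.19 and 3.61 and did not pass (adjusted p = 0.149 to 0.184). The direction of the human ratios is therefore taken from the dyes in the labels and called likely only. Each array holds the empty-vector RNA in 1 dye orientation, so a feature's dye bias and its response cannot be told apart, and how much the control alone varies was not measured.

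Of 14 human genes measured from the list for extracellular nucleotides and adenosine, 7 lay above 0 and 7 below, with a median of -0.04, and limma passed 0 of them. Among all genes 1099 of 4604 had an unadjusted p under 0.05. CD38, which turns NAD into cyclic ADP-ribose, lay at 0.86 at day 2, 2.55 and 1.00 at day 3 and 1.97 at day 5, a mean of 1.60 ± 0.37 (SE, limma adjusted p = 0.130). The next enzyme after CD39, NT5E (CD73), lay at -0.61 ± 0.26 (SE, limma adjusted p = 0.221). ENPP1, an ectonucleotide pyrophosphatase, lay at 0.01 ± 0.28, and its relative ENPP2, also known as autotaxin, at 0.66 ± 0.28 (SE). BST1, an enzyme related to CD38, lay at -1.07 ± 0.46, and ADA at 0.13 ± 0.34 (SE). For BST1, ENPP1 and NT5E the features gave unlike answers. A BST1 feature lay at -4.33 at day 2, -2.16 and 0.495 at day 3 and -4.25 at day 5. The other BST1 feature lay at 0.22, 0.92, 0.08 and 0.49 in the same order. An ENPP1 feature lay between -1.81 and -0.16, and the others between -0.79 and 1.73. At day 2 the NT5E features lay at -2.62, 0.66 and -0.43. The ATP receptor gene P2RX6, named after its values were seen, had the largest distance from 0 of the list at -3.97 ± 0.44 (SE, limma adjusted p = 0.063).

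The human counterpart of Alpl was measured by 1 feature and was looked at after its values were seen. ALPL lay at -0.59 at day 2, -1.25 and -1.79 at day 3 and -5.22 at day 5, below 0 on 4 of 4 arrays, as were 21% of the human genes. Its mean was -2.21 ± 0.76 (SE, limma adjusted p = 0.173), and -1.21 without the day 5 array (adjusted p = 0.231). The day 5 array also had the widest spread of the 4, with an SD over all features of 2.04 against 1.25 to 1.51. Of 13 genes of the alkaline phosphatase and GPI anchor list 4 lay above 0 and 9 below, and of 7 other ectoenzymes 2 above and 5 below, with 0 past the threshold in either list.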

How the data were processed

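The authors deposited 1 log2 ratio per feature and array, for 12292 mouse and 15246 human features with no missing value; base 2 and Cy5 over Cy3 were assumed. How the arrays were scanned, background-corrected, normalized and filtered is not given in the sources used here. Before centring, medians lay between -0.44 and 0.28 (mouse) and between -0.26 and -0.08 (human). Symbols came from the platform annotation: 559 mouse features had 1 symbol, 44 several and 11689 none, and of the human ones 10169, 4 and 5073.

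The median of all features was subtracted from each array, and features with 1 symbol were averaged per gene. limma 3.58.1 in R 4.3.3 fitted the 23 mouse arrays together with a mean for each of 8 groups, and the 4 human arrays against 0, with 2-sided moderated tests and Benjamini-Hochberg adjustment over all genes of a platform. limma fits were tested on simulated data. No gene was filtered. Only 1 dye orientation was hybridised. The design text speaks of biological repeats, but not of separate mice, so p-values measure the spread between these arrays. The number of arrays limits the precision. The design left replicate numbers unpaired: of 10 KO and Het pairs with 1 number, 5 had deviations that correlated over 0.1 (range -0.17 to 0.51).

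The members, gene lists and tests were chosen with earlier results of these data known. Genes were named by rule: the members, list genes past the threshold, 6 others of the extracellular nucleotide list in its order, and the 5 genes of highest Spearman correlation with each mouse member, and Jchain and IRF4 as checks of the labels. The alternatives were other centring, scaling and quantile normalization, array weights, a replicate block, the database ranges, the conflicting labels, very low or high values set to missing, single features and leaving out each array. The last was added for other named genes after seeing the data.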

Additional observations from a re-analysis of the deposited data

Results flagged for a closer look

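For Entpd1 the 96 h arrays lay on opposite sides of their own 0 h means in the genotypes. Each of the 3 KO arrays at 96 h lay below the KO mean at 0 h (0.354), the highest of them only just (0.346). Each of the 4 Het arrays lay above the Het mean at 0 h (0.60), which makes a difference of -1.23 (KO minus Het in the change). By size this was place 73 from the lowest among 331 genes, so it was not unusual. How many genes have arrays on opposite sides in this way was not counted. The difference was not tested, since the 96 h arrays chose the gene, and no movement in KO is shown: its change was -0.08, small beside the spread of the KO arrays at 0 h (SD 0.72), and 0.54 under centring by named features.

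On the human arrays 1 array stood far from the other 3 for 3 of the features checked. Only the features of ENTPD1, IRF4 and ALPL and the ENTPD1 mean were checked. For a single feature chance gives this in about 1 of 20 groups. The share over all human features was not counted. ENTPD1 feature 15987_1 lay at -0.52 at day 5, against 0.29 to 0.35 on the others. IRF4 features 16614_1 and 35916_1 lay at 0.77 and 0.59 on day 3 replicate 1, against -0.92 to -0.80 and -0.80 to -0.61 on the others.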

How the results depend on the processing

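Over 22 results on the members and 408 alternatives, 390 kept their sign, and of 155 alternatives for the 9 tested results 4 passed the threshold that the main setting missed. The results without a test rest on arrays that chose the genes, so a kept sign there is no separate support. Between genotypes before LPS, Entpd1 was 0.045 with array weights, from -0.62 to 0.10 with 1 array left out, and Alpl 0.0145 without the lowest database range. At 24 h Entpd1 lay between -0.070 and 0.41 with 1 array left out, and Alpl at -0.18 without the lowest range. At 48 h Entpd1 was 0.063 with conflicting arrays taken as Het, and Alpl -1.83 with arrays scaled, -2.24 after quantile normalization, -1.63 with conflicting arrays left out and -0.97 with them as Het. At 96 h Entpd1 was -1.32 centred over the named features, and Alpl -2.43 scaled and -3.57 after quantile normalization (-2.51 over the LPS times).

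Against 0 h, Entpd1 in Het at 24 h was -1.32 centred over the named features, -1.42 without the lowest range and -1.16 with range as a factor. In KO at 48 h it was -1.001 without the lowest range, and at 96 h 0.54 centred over the named features. In Het at 96 h it was 1.77 centred over the named features, 1.46 not centred, 1.34 scaled, 0.89 without the lowest range and 0.83 with range as a factor. Alpl was 1.95 (KO 24 h), 2.03 (Het 48 h) and 0.98 (Het 96 h) without the lowest range, and centred over the named features 0.64 (Het 96 h) and -0.73 (KO 96 h), the last -2.97 after quantile normalization. ENTPD1 feature 28536_1 alone gave -0.11. The cause was not tested.

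Centring over the named features moved the median gene in KO minus Het by 0.16, 0.51, 0.14 and 0.15 at 0, 24, 48 and 96 h. The replicate block changed no call on a member (Entpd1 at 48 h was -0.50, KO minus Het), and moved 1 count by over 1.5 times, from 5 to 2 genes in KO at 48 h against 0 h. Counts past the threshold lay, over all alternatives, between 0 and 57 (main 6) for the genotypes at 0 h, 0 and 21 (0) at 24 h, 0 and 1 (0) at 48 h, 6 and 42 (9) at 96 h and 3 and 16 (8) over the LPS times. Against 0 h they lay between 0 and 99 (44) in Het at 24 h, 0 and 79 (28) in Het at 48 h, 1 and 37 (5) in KO at 24 h and 0 and 24 (5) in KO at 48 h, and in the human line between 0 and 262 (5).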
